A study of Mus musculus with 12 samples.

Results

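Zfp genes with a number in their name encode many of the C2H2 zinc finger proteins of the mouse, and 264 of them were expressed in the C2C12 myoblasts studied here. Members were chosen by name and by measured level, as the protein-coding genes named Zfp followed by a number with a mean of at least 2 TPM (transcripts per 1000000, a level corrected for transcript length) over the 12 libraries. The siRNA target Zfp143 and the names Zfp76, Zfp750 and Zfp36 were left out by the rule. The 264 genes came from 379 candidates, of which 115 were below the threshold, 28 of them at 0 in every library, and from 78275 gene IDs in all. C2C12 is an established line of mouse myoblasts that fuses into myotubes when serum is withdrawn. All cells were of wild-type genotype, grew in medium with 10% fetal bovine serum and received Lipofectamine 3000 with siRNA against Zfp143 (knockdown) or a non-targeting siRNA (control). They were harvested 24 hours later as uninduced cells, or after a further 5 days in 1% horse serum as induced cells. The 4 groups were thus induced knockdown, induced control, uninduced knockdown and uninduced control, with 3 poly-A RNA-seq libraries each. The labels name 1 batch and do not say that the libraries came from separate cultures, so the p-values below measure the spread between these libraries, which may be technical.

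C2H2 zinc fingers are small domains held by a zinc ion that read short DNA or RNA sequences, and a row of fingers gives a protein its own target. Many of these proteins also carry a KRAB domain, which recruits the corepressor Trim28 and, through it, histone methylation and silencing, above all at retroelements. They are among the fastest evolving gene families of mammals and often lie in clusters of tandem copies. Zfp143, the gene targeted here, is the mouse form of ZNF143, a zinc finger activator that binds promoters at a long motif with the core ACTACAA next to CCCANNATG.

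Library totals, in units of 1000000 estimated counts, ran from 13.5 to 19.1. Zfp143 itself averaged 4.65 TPM in uninduced knockdown libraries and 13.1 TPM in uninduced control libraries, a log2 difference of -1.41 ± 0.18 (SE, adjusted p = 6.12e-05, edgeR). In induced libraries it averaged 11.2 TPM in those labelled knockdown and 11.4 TPM in controls (log2 difference -0.18 ± 0.18, adjusted p = 0.646, edgeR), so the target was not measurably lower there, and those libraries are called by their label below. Myogenin (Myog), which drives myotube formation, averaged 290.3 TPM in induced libraries labelled knockdown and 503.7 TPM in induced controls, against 1.80 TPM in uninduced knockdown and 3.42 TPM in uninduced control libraries. Of 12 markers of other cell types, the defining genes Adgre1, Epcam and Rbfox3 were at 0 in every library, whereas Cd14 averaged 19.5 to 30.7 TPM and Stmn2 averaged 6.06 to 12.9 TPM in all groups. The epithelial keratin Krt8 averaged 2.53 TPM in induced libraries labelled knockdown and 7.77 TPM in induced controls, against 0.012 TPM in uninduced knockdown and 0 in uninduced control libraries. The part of these markers in the results was not tested. Uninduced control 3 stood apart from the other uninduced controls, with 6.02% of its counts from mitochondrial genes against 2.63% and 2.90% in its partners. Induced knockdown 1 was the shallowest library and had the lowest mitochondrial share, 1.95%. The counts of genes called are also given without uninduced control 3, and those without both libraries stand in the closing section.

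The chosen genes were expressed at modest levels. Their mean level had a median of 7.67 TPM and ran from 2.01 to 128 TPM, with 104 genes at 10 TPM or more and 6 at 50 TPM or more, whereas the 10852 protein-coding genes at the same threshold had a median of 21.6 TPM. Just inside the threshold were Zfp72 at 2.01 TPM, Zfp738 at 2.11 TPM and Zfp14 at 2.12 TPM, and just outside it Zfp429 at 1.98 TPM, Zfp175 at 1.86 TPM and Zfp992 at 1.86 TPM. The most abundant were not KRAB repressors. Zfp207, a spindle assembly protein, averaged 128 TPM, Zfp622, a factor in maturation of the large ribosomal subunit, averaged 123 TPM, and Zfp706 averaged 90.4 TPM. They were followed by Zfp330 at 70.7 TPM, Zfp740 at 62.9 TPM and the ubiquitin ligase Zfp91 at 53.6 TPM, then by Zfp146 at 44.4 TPM and Zfp106, an RNA-binding protein needed for motor neuron and muscle upkeep in mice, at 40.9 TPM. By their predicted proteins, 153 of the 264 carried a KRAB domain, 75 had 5 or more fingers and no KRAB domain, 30 had 1 to 4 fingers and no KRAB domain, 5 had neither a KRAB domain nor a canonical finger, and Zfp469 could not be classed. The KRAB genes Zfp972, Zfp1001, Zfp1003 and Zfp1009 had no predicted finger.

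Summed over the 264 genes in TPM, expression was lowest in uninduced knockdown cells. The sum was 3740, 3426 and 3698 TPM in the induced libraries labelled knockdown, against 3222, 3523 and 3625 TPM in the induced controls. It was 2347, 2737 and 2513 TPM in the uninduced knockdown libraries, against 3258, 3510 and 2743 TPM in the uninduced control libraries. In TPM all 3 uninduced knockdown libraries lay below all other libraries, although the lowest of the uninduced controls, library 3, was only just above the highest of them. As CPM, counts per 1000000 scaled by edgeR's TMM factors without correction for transcript length, the sums averaged 6341 ± 267 in induced libraries labelled knockdown and 6590 ± 291 in induced controls (SD, n = 3 each). In that unit the uninduced knockdown libraries averaged 6464 ± 361 and the uninduced controls 7897 ± 803, so that in CPM the induced libraries labelled knockdown had the lowest mean. Only the knockdown difference in uninduced cells had the same direction in both units: the rise with induction in TPM, in knockdown and control cells, was a fall in CPM, and the small excess of the induced knockdown libraries over their controls also turned round. The sum is a share of each library's RNA, so that fewer transcripts from these genes and more RNA from other genes cannot be told apart.

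**Figure D1:**
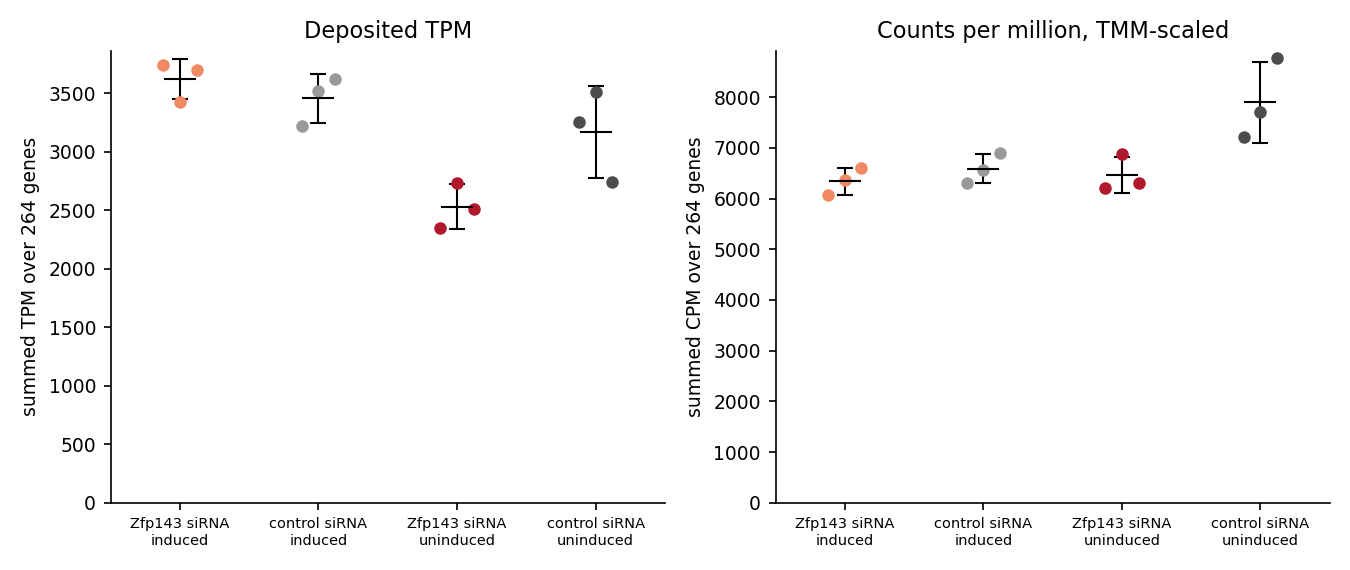
Summed level of the 264 Zfp genes in each of the 12 libraries, in TPM and in TMM-scaled counts per 1000000, by group. Each point is 1 library, and the lines give the group mean ± SD. The 3 uninduced knockdown libraries are at 2347 to 2737 TPM, below the 2743 to 3510 TPM of the uninduced controls, and the groups' order among induced cells differs between the units.

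Many of the Zfp genes were lower, and few higher, in uninduced knockdown than in uninduced control cells. In edgeR's quasi-likelihood test with Benjamini-Hochberg adjustment over the 15030 genes tested, called at an adjusted p under 0.05, 91 of the 264 (34.5%) were lower in knockdown cells and 9 (3.41%) were higher. Of all tested genes, 17.1% were lower and 15.4% were higher. The median log2 difference of the 264 genes was -0.39, against -0.04 for all tested genes and -0.09 for tested protein-coding genes at 2 TPM or more, of which 20.6% were lower and 14.8% were higher. All 264 passed the filter on low counts and were tested. In 107 of them (40.5%) every knockdown library was below every control library, and in 17 (6.44%) every knockdown library was above, against 22.8% and 21% of all tested genes. The differences between these shares were not tested. The number of lower genes depended on single libraries: it was 56 without uninduced knockdown 1 and 56 without uninduced knockdown 3, with 10.8% and 11.4% of all genes then lower. Without uninduced control 3 it was 82, of which 68 were among the 91, and the number of higher genes was 18, including all 9, with 18.7% of all genes then lower and 19.4% higher.

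**Figure D2:**
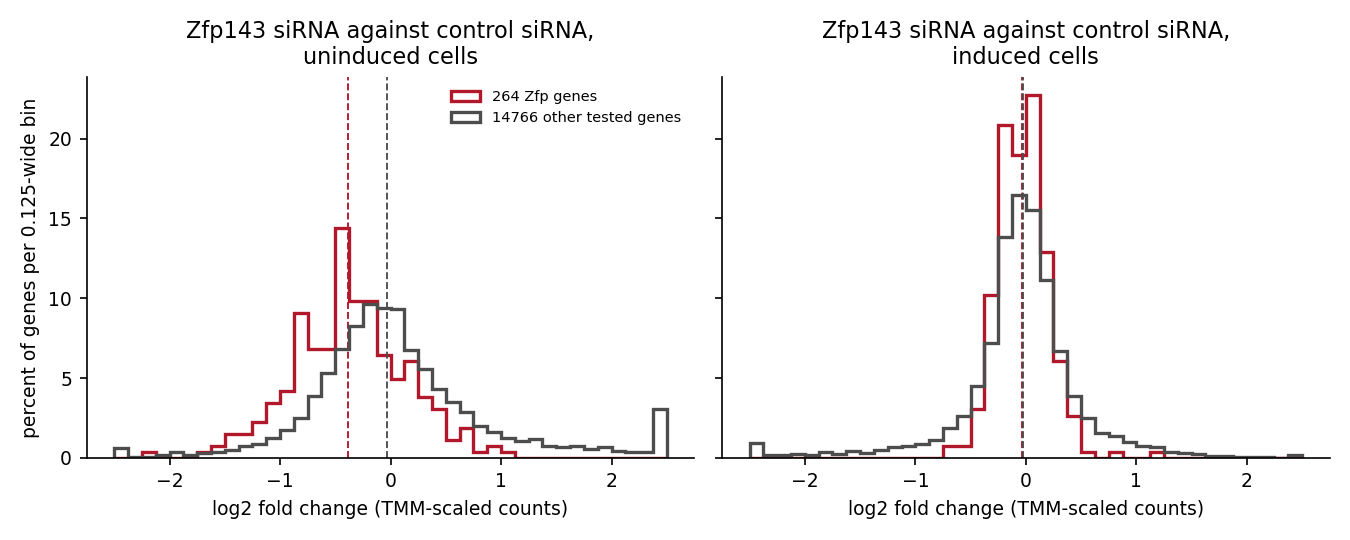
Distribution of log2 differences for knockdown minus control in uninduced and in induced cells, for the 264 Zfp genes and the 14766 other tested genes, as a percent of each set per bin of 0.125. The dashed lines mark the medians, and the outermost bins hold all values beyond the axis. In uninduced cells the Zfp genes are shifted to the left of the other genes, with a median of -0.39, whereas in induced cells their median is -0.03.

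By class, the KRAB genes had 59 of 153 lower and 7 higher, with a median log2 difference of -0.45. Genes with 5 or more fingers and no KRAB domain had 19 of 75 lower and 1 higher (median -0.29), and those with 1 to 4 fingers had 11 of 30 lower and 0 higher (median -0.16). Of the 5 genes with neither a KRAB domain nor a canonical finger, Zfp503 was higher and Zfp839 was lower, and Zfp469 was lower. With a stricter sequence pattern for the KRAB domain, chosen after the data were seen, 36 of 85 KRAB genes were lower, 42.4%. For comparison, 13 of the 51 Zbtb, Zscan and Zkscan genes at 2 TPM or more, which encode zinc finger proteins with BTB or SCAN domains, were lower and 4 were higher, with a median of -0.13. The differences between classes were not tested.

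The KRAB gene Zfp961 showed the largest decrease among the Zfp genes tested. It had 3.995, 4.25 and 3.96 CPM in uninduced knockdown libraries, against 13.9, 15.9 and 28.4 CPM in uninduced controls, a log2 difference of -2.25 ± 0.24 (SE, edgeR adjusted p = 1.02e-05). Its induced libraries were at 4.65, 5.69 and 6.05 CPM where labelled knockdown and at 3.70, 3.90 and 4.46 CPM in controls, close to the uninduced knockdown level. The uninduced controls thus held the only high values of Zfp961. Zfp760, a KRAB gene with 16 predicted fingers, had 5.88, 6.02 and 8.08 CPM in uninduced knockdown libraries against 15.2, 17.6 and 24.96 CPM in uninduced controls, a log2 difference of -1.53 ± 0.23 (edgeR adjusted p = 0.000183). Zfp369, which also carries a KRAB domain, had 2.74, 3.96 and 3.73 CPM in uninduced knockdown libraries against 9.67, 13.4 and 8.47 CPM in uninduced controls, a log2 difference of -1.60 ± 0.26 (edgeR adjusted p = 0.000353). The groups did not overlap for either gene.

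Zfp759, a low KRAB gene with 19 predicted fingers, had 1.08, 1.89 and 1.92 CPM in uninduced knockdown libraries against 2.93, 4.88 and 7.82 CPM in uninduced controls (log2 difference -1.66 ± 0.35, edgeR adjusted p = 0.00212). For Zfp994 the values were 6.79, 10.5 and 8.93 CPM in uninduced knockdown libraries against 14.0, 17.6 and 38.6 CPM in uninduced controls (log2 difference -1.41 ± 0.31, edgeR adjusted p = 0.00345). In both genes uninduced control 3 was the highest library of all 12, and without that library the difference of Zfp994 was -0.85 and still called. The estimated counts of Zfp994 were not whole numbers in any of the 12 libraries, which is how reads shared with near-identical genes are split, so its level is uncertain. Zfp462, a protein with 33 predicted fingers that binds heterochromatin proteins and restrains lineage genes in stem cells, had 9.82, 12.8 and 10.8 CPM in uninduced knockdown libraries against 33.6, 34.2 and 21.9 CPM in uninduced controls. Its log2 difference was -1.43 ± 0.20 (edgeR adjusted p = 9.56e-05), and in both induced groups it was back between 24.4 and 36.0 CPM.

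The genes that rose in uninduced knockdown cells were mostly KRAB genes too, 7 of the 9. Zfp747 had 14.4, 12.04 and 12.5 CPM in uninduced knockdown libraries against 6.63, 6.15 and 5.91 CPM in uninduced controls (log2 difference 1.06 ± 0.18, edgeR adjusted p = 0.00054), with counts that were not whole in 9 libraries. Its neighbour Zfp764 had 7.13, 7.03 and 6.95 CPM in uninduced knockdown libraries against 3.15, 4.12 and 4.40 CPM in uninduced controls (log2 difference 0.86 ± 0.19, edgeR adjusted p = 0.00301). The knockdown libraries of both genes were tightly grouped above the controls. Zfp52 had 78.4, 88.3 and 72.6 CPM in uninduced knockdown libraries against 33.5, 33.1 and 58.0 CPM in uninduced controls (log2 difference 0.94 ± 0.21, edgeR adjusted p = 0.00353). Zfp948, from the same chromosome 17 cluster, had 31.9, 40.5 and 27.5 CPM in uninduced knockdown libraries against 13.0, 17.3 and 21.9 CPM in uninduced controls (log2 difference 0.94 ± 0.21, edgeR adjusted p = 0.00349). In both, the third control was the highest control but stayed below the knockdown libraries. Zfp503, a corepressor of the NET family with roles in limb and striatal development in vertebrates, had 36.8, 30.4 and 36.4 CPM in uninduced knockdown libraries against 24.4, 21.0 and 18.3 CPM in uninduced controls (log2 difference 0.70 ± 0.18, edgeR adjusted p = 0.0078). Zfp46, a KRAB gene, had 18.4, 20.02 and 23.5 CPM in uninduced knockdown libraries against 12.2, 14.2 and 11.7 CPM in uninduced controls (log2 difference 0.70 ± 0.16, edgeR adjusted p = 0.00402). The other 3 higher genes were Zfp954, Zfp655 and Zfp7, with log2 differences of 0.64, 0.57 and 0.45. Zfp954 lost its call without uninduced knockdown 3 or uninduced control 2, and Zfp655 and Zfp7 theirs without uninduced knockdown 2 or uninduced control 1 or 2.

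**Figure D3:**
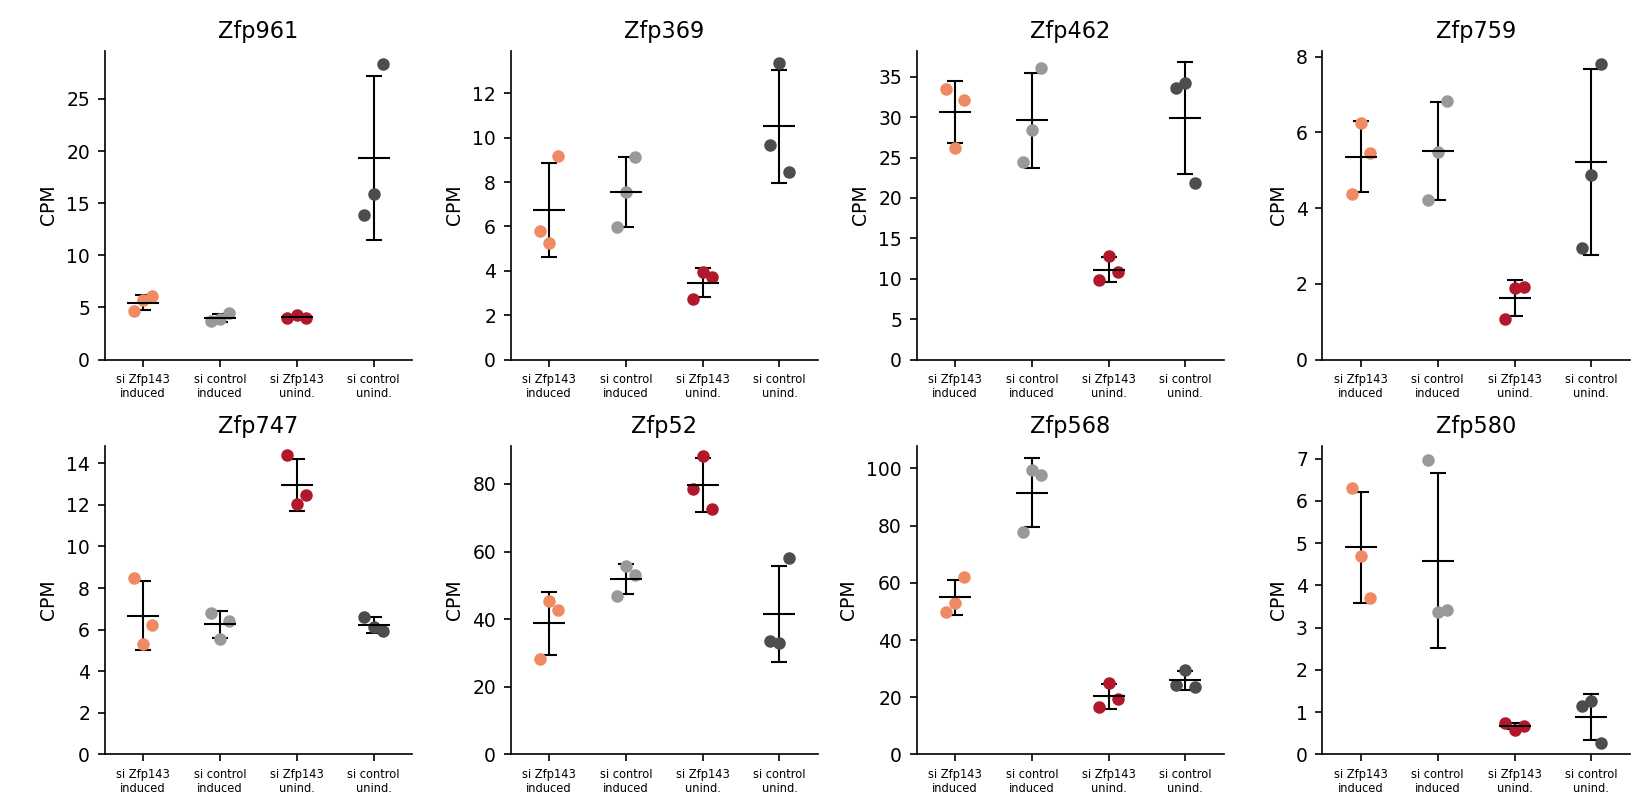
Counts per 1000000 (CPM, TMM-scaled) of 8 named Zfp genes in the 12 libraries, by group, with a linear axis from 0 for each gene. Each point is 1 library, and the lines give the group mean ± SD. Zfp961, Zfp369, Zfp462 and Zfp759 are lower in uninduced knockdown than in uninduced control libraries, Zfp747 and Zfp52 are higher, and Zfp568 and Zfp580 are higher in induced than in uninduced libraries.

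Lists of Zfp genes with known roles were made with earlier results of these data known, and their counts are to be read against the 17.1% of all tested genes that were lower and the 15.4% that were higher. Of 11 genes tied to cell growth and differentiation, 5 (45.5%) were lower in uninduced knockdown cells and 1, Zfp503, was higher. Zfp746, known as PARIS, a repressor of the mitochondrial regulator PGC-1alpha and a substrate of parkin, had 16.6, 17.7 and 18.8 CPM in uninduced knockdown libraries against 40.4, 37.6 and 35.3 CPM in uninduced controls (log2 difference -1.10 ± 0.14, edgeR adjusted p = 3.87e-05). Zfp148, a GC-box binding factor, had 71.3, 80.7 and 65.5 CPM in uninduced knockdown libraries against 124, 142 and 148 CPM in uninduced controls (log2 difference -0.93 ± 0.15, edgeR adjusted p = 0.000289). Both were lower in every knockdown library than in any control. Zfp609, a partner of the Integrator complex in mouse neural progenitors, also fell, by 0.87 on the log2 scale. Zfp106 fell by 0.40, a call that was lost without uninduced knockdown 1 or 3 or uninduced control 1 or 2. Zfp637 and Zfp422, both studied as regulators of C2C12 differentiation, differed by -0.35 and -0.15 and did not pass the test, nor did Zfp217 at 0.04, Zfp281 at 0.39 and Zfp703 at 0.33.

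Of 14 partners of chromatin regulators, 6 (42.9%) were lower and 0 higher in uninduced knockdown cells. Zfp687, a subunit of a transcriptional complex with Zmynd8, had 16.3, 15.2 and 15.8 CPM in uninduced knockdown libraries against 35.0, 27.8 and 22.3 CPM in uninduced controls (log2 difference -0.85 ± 0.18, edgeR adjusted p = 0.00209). Its partner in that complex, Zfp592, differed by only -0.12 and did not pass the test. Zfp652 had 24.6, 27.3 and 27.5 CPM in uninduced knockdown libraries against 47.8, 47.8 and 37.1 CPM in uninduced controls, and fell by 0.74 (SE 0.12, edgeR adjusted p = 0.000398). Zfp516, a brown fat transcription factor, fell by 0.64. Zfp451, a SUMO ligase, Zfp318 and Zfp608 each fell by 0.47, and all 3 calls were lost without uninduced knockdown 1 or 3 or uninduced control 2. Zfp318 also lost its call without uninduced control 1, induced knockdown 2 or induced control 2 or 3. Of 12 genes for RNA-binding, ribosome, spindle and ubiquitin proteins, 3 were lower and 0 higher. That is 25% lower, near the 20.6% of tested protein-coding genes at 2 TPM or more. The 3 were Zfp346, which binds double-stranded RNA, at -0.68, Zfp638, a nuclear protein that silences unintegrated retroviral DNA, at -0.74, and Zfp598, a ubiquitin ligase that marks collided ribosomes, at -0.45. Without uninduced control 3 the difference of Zfp638 was -0.43 and still called. Zfp598 kept its call only without uninduced control 3, induced knockdown 1 or induced knockdown 3. Of 5 KRAB genes known to control retroelements or imprints in mice, Zfp445, which guards imprints, and Zfp932 were lower, at -0.45 and -0.57. Zfp445 lost its call without uninduced knockdown 1 or 3 or uninduced control 2 or 3. Zfp932 kept its call only without uninduced control 1 or 2 or induced knockdown 1 or 2, and without uninduced control 3 it differed by -0.33. The imprint guardian Zfp57 differed by -0.14, and Zfp809, which recognises retroviral primer binding sites, by 0.01.

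Genes of the silencing machinery that KRAB proteins recruit, a list of 27, had 13 lower (48.1%) and 0 higher in uninduced knockdown cells, against 17.1% and 15.4% of all tested genes, with a median of -0.44. Trim28 itself averaged 286 CPM in uninduced knockdown and 284 CPM in uninduced control libraries and did not pass the test (log2 difference 0.01, edgeR adjusted p = 0.978). The histone methyltransferase Setdb1 averaged 45.6 CPM in uninduced knockdown and 62.0 CPM in uninduced control libraries, a log2 difference of -0.44 ± 0.11 (edgeR adjusted p = 0.00661). Ehmt1 and Suv39h2, also histone methyltransferases, fell too, at -0.91 and -0.90, as did Chd3, at -0.90. The histone methyltransferases Ehmt2 and Suv39h1 differed by only -0.07 and -0.02 and did not pass the test.

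Transcript length moved with the knockdown difference. The average effective transcript length of the 264 genes had a median of 2911 bases, against 2579 bases for the other 12347 tested protein-coding genes. Among Zfp genes up to 1000 bases 0 of 14 were lower in uninduced knockdown cells, against 4.19% of other genes of that length, and the share rose with each length class. It was 28.9% against 8.95% from 1000 to 2000 bases, 30.2% against 13.5% from 2000 to 3000, and 33.3% against 20.9% from 3000 to 4000. It was 47.4% against 32.3% from 4000 to 6000 bases, and 57.1% of 28 Zfp genes against 49.4% above 6000. Within every class above 1000 bases the share was thus larger for the Zfp genes, and closest to that of the other genes in the longest class. Across genes, log2 length and the log2 difference had a Pearson correlation of -0.24 over the 264 Zfp genes and -0.20 over the other genes, which share the same libraries. Long transcripts as a whole carried fewer counts in the uninduced knockdown libraries: genes above 6000 bases took 6.26%, 7.43% and 6.54% of their counts, against 10.3%, 10.5% and 7.09% in the uninduced controls. Uninduced control 3 was therefore close to the knockdown libraries in this respect.

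**Figure D4:**
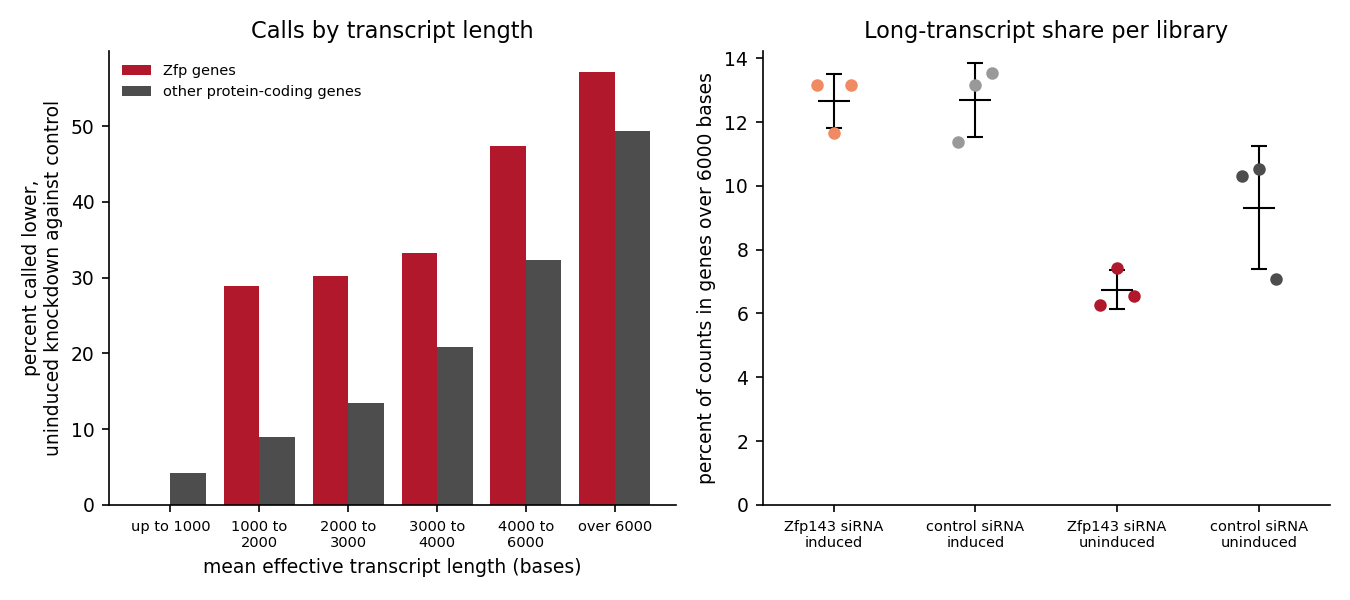
Left, percent of genes called lower in uninduced knockdown against uninduced control cells by class of mean effective transcript length, for the Zfp genes and for the other tested protein-coding genes. Right, percent of each library's counts in genes above 6000 bases, 1 point per library, with the group mean ± SD. The share of Zfp genes called lower is 28.9% from 1000 to 2000 bases and 57.1% above 6000 bases, against 8.95% and 49.4% of the other genes.

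When each library's trend of expression with transcript length was removed, 70 Zfp genes were lower in uninduced knockdown cells (26.5%, all genes 14.9%). In this alternative, chosen after seeing the data, 17 were higher (6.44%, all genes 15.9%). Of the 91 lower genes 68 were still called, and the median of the 264 was -0.28 against -0.04 for all genes. Zfp106 and Zfp318, with effective lengths of 9305 and 11220 bases, turned to 0.11 and 0.14 and lost their calls. The cause of the length trend was not tested. A change in the length of the transcripts themselves was small for nearly all: the ratio of mean effective length, knockdown over control in uninduced cells, had a median of 1.01 and was above 1.2 in 3 of the 264 genes, with Zfp965 highest at 1.57. With the deposited lengths as an offset in the model, 104 were lower and 11 higher. The shares of all tested genes with this offset are not given, so these counts cannot be set against other genes.

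The promoters of a few Zfp genes hold the core letters of the ZNF143 motif, and 5 are shown because the protein targeted here is known to bind these letters. RefSeq promoter windows of the GRCm38.p6 assembly, from 250 bases before to 50 after the start, were matched for 212 of the 264 genes. Each window was searched on both strands for ACTACAA and for CCCANNATG. Counted by gene over all its windows, both were present in 5 of the 212 genes (2.36%), namely Zfp1, Zfp111, Zfp219, Zfp691 and Zfp697. By the same count both were present in 0.474% of all 27025 genes with windows and in 0.981% of the tested protein-coding genes with windows. In Zfp1, Zfp219 and Zfp691 the motifs lie 2 bases apart on the same strand. This arrangement was found in 1.42% of the 212 Zfp genes and 0.229% of all genes with windows. The stretches below lie at chr8:111643363-111643462 on the plus strand (Zfp1), chr14:52019694-52019793 on the minus strand (Zfp219) and chr4:119174316-119174415 on the minus strand (Zfp691). Those of Zfp697 and Zfp111 lie at chr3:98382354-98382453 on the plus strand and chr7:24208150-24208399 on the minus strand. In these stretches, written 5′ to 3′ along the gene, capitals mark ACTACAA and CCCANNATG or their reverse complements.
Zfp1: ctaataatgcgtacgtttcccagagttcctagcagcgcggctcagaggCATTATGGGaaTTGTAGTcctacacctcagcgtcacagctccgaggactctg
Zfp219: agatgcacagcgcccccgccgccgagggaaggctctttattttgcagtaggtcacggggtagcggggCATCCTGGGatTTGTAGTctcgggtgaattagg
Zfp691: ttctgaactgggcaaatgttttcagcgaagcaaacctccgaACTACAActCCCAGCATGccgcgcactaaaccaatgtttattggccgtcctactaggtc
Zfp697: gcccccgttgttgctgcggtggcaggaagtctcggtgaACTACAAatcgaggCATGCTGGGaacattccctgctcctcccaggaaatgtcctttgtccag
Zfp111: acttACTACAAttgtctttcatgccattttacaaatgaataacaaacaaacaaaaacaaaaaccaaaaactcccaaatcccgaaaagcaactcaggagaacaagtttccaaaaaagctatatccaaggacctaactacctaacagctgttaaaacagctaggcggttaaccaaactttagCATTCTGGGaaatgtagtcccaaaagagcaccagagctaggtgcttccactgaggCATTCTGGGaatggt

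Genes with and without these letters were counted in uninduced cells, and the differences between them were not tested. Of the 16 Zfp genes with ACTACAA, 4 were lower in uninduced knockdown cells and 0 higher (median log2 difference -0.38), and of the 196 without it 66 were lower and 8 higher (median -0.40). Of the 19 Zfp genes with CCCANNATG, 6 were lower and 0 higher (median -0.33), and of the 193 without it 64 were lower and 8 higher (median -0.39). Among all tested protein-coding genes with a matched promoter, 20.2% of those with CCCANNATG were lower and 12.1% higher, against 19.3% and 15.1% without it. Among the 5 genes shown, Zfp111 and Zfp1 fell in uninduced knockdown cells, with log2 differences of -1.23 and -0.43. Zfp111, a KRAB gene, had 4.96, 8.03 and 5.14 CPM in uninduced knockdown libraries against 13.0, 15.5 and 14.0 CPM in uninduced controls (SE 0.18, edgeR adjusted p = 0.000165). Zfp219, whose motifs are closest to the start, had 18.7, 17.5 and 20.7 CPM in uninduced knockdown libraries against 17.3, 12.7 and 10.5 CPM in uninduced controls and did not pass the test. A match is a description of letters in a window and no evidence of binding, and binding was not measured here. Zfp523, the mouse ortholog of human ZNF76 and paralog of Zfp143, was singled out after its values were seen: it differed by -0.12 in uninduced cells and did not pass the test.

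In induced cells few Zfp genes differed between the siRNA labels. Of the 264, Zfp101 was higher in the induced libraries labelled knockdown (0.379%), and Zfp568 and Zfp697 were lower (0.758%), against 3.73% of all tested genes higher and 5.77% lower (edgeR, adjusted p under 0.05). The median log2 difference was -0.03, as for all tested genes. No gene called in uninduced cells was called in induced cells, and the log2 differences of the 2 comparisons, which share no library, had a Pearson correlation of 0.08 over the 264 genes. Groups did not overlap in 12 genes upward and 26 downward, 4.55% and 9.85%, against 12.3% and 16.7% of all tested genes.

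Zfp101, a KRAB gene, had 9.10, 12.3 and 14.1 CPM in induced libraries labelled knockdown against 6.51, 6.38 and 7.19 CPM in induced controls, a log2 difference of 0.83 ± 0.17 (edgeR adjusted p = 0.00462). Zfp568, a KRAB protein that silences a placental transcript of Igf2 in mouse embryos, had 49.95, 52.8 and 61.9 CPM in induced libraries labelled knockdown against 77.7, 99.3 and 97.6 CPM in induced controls (log2 difference -0.74 ± 0.16, edgeR adjusted p = 0.00684). Zfp697, a regulator of the inflammatory response of regenerating mouse muscle whose promoter is shown above, had 10.6, 11.9 and 12.1 CPM in induced libraries labelled knockdown against 17.0, 16.9 and 21.2 CPM in induced controls (log2 difference -0.67 ± 0.15, edgeR adjusted p = 0.00933). The groups did not overlap for any of the 3. Without induced control 3 Zfp697 differed by -0.55 (edgeR adjusted p = 0.064), so 1 gene was then lower. Without uninduced control 3, which enters through the shared spread, 4 were lower. Zfp568 and Zfp697 both rose with induction, as described next, and Myog was also lower in induced libraries labelled knockdown, by 0.86 on the log2 scale. The myoblast and myotube markers Mef2c, Ckm, Myh3, Acta1 and Des were lower there too, with log2 differences of -3.67, -2.53, -1.56, -1.55 and -0.65. Myod1 and Myf5 differed by -0.18 and -0.49 and did not pass the test. The part of induction and of these markers in the differences was not tested. The corepressor list had 3 higher (11.1%) and 0 lower genes in this comparison, namely Uhrf1 at 1.16, Suv39h1 at 0.90 and Dnmt1 at 0.66.

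Induction changed Zfp genes in both directions. In knockdown cells 102 (38.6%) were higher in induced than in uninduced libraries and 39 (14.8%) were lower, against 36% and 30.1% of all tested genes. In control cells 53 (20.1%) were higher in induced than in uninduced libraries and 75 (28.4%) were lower, against 33.2% and 30.9% of all tested genes (edgeR, adjusted p under 0.05). The median log2 difference of the 264 was 0.21 in knockdown cells and -0.07 in control cells, against 0.10 and 0.03 for all tested genes. With the length trend removed, 78 (29.5%) were higher and 69 (26.1%) lower in knockdown cells, against 32.8% and 33.7% of all tested genes. The larger share of higher Zfp genes in knockdown cells was thus not kept. In control cells 50 (18.9%) were then higher and 84 (31.8%) lower, against 32.2% and 34.3% of all tested genes. Scaling by library size alone moved all genes together, to medians of 0.35 in knockdown and 0.21 in control cells, and the Zfp median in control cells then turned to 0.11; relative to all genes the Zfp medians stayed at 0.11 and -0.10 in knockdown and control cells. The balance in control cells rested on uninduced control 3. Without that library 69 genes were higher and 63 lower with induction in control cells, against 33.2% and 29.9% of all tested genes, and the median was 0.016 against 0.052 for all tested genes. In knockdown cells 109 were then higher and 50 lower, against 37.7% and 32.8% of all tested genes. Ranges of the induced and uninduced libraries did not overlap in 106 genes (40.2%) upward and 53 (20.1%) downward in knockdown cells. Of all tested genes, 38.5% and 33.7% did so. In control cells they did not overlap in 56 (21.2%) upward and 74 (28%) downward, against 35.8% and 32.4% of all tested genes. The 2 inductions share no library. They shared 45 higher genes, 44.1% of those in knockdown and 84.9% of those in control cells, and 29 lower genes, 74.4% and 38.7%. In 5 genes the call was higher in knockdown cells and lower in control cells, and in 1 the reverse. Over the 264 genes the 2 sets of log2 differences had a Pearson correlation of 0.76.

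**Figure D5:**
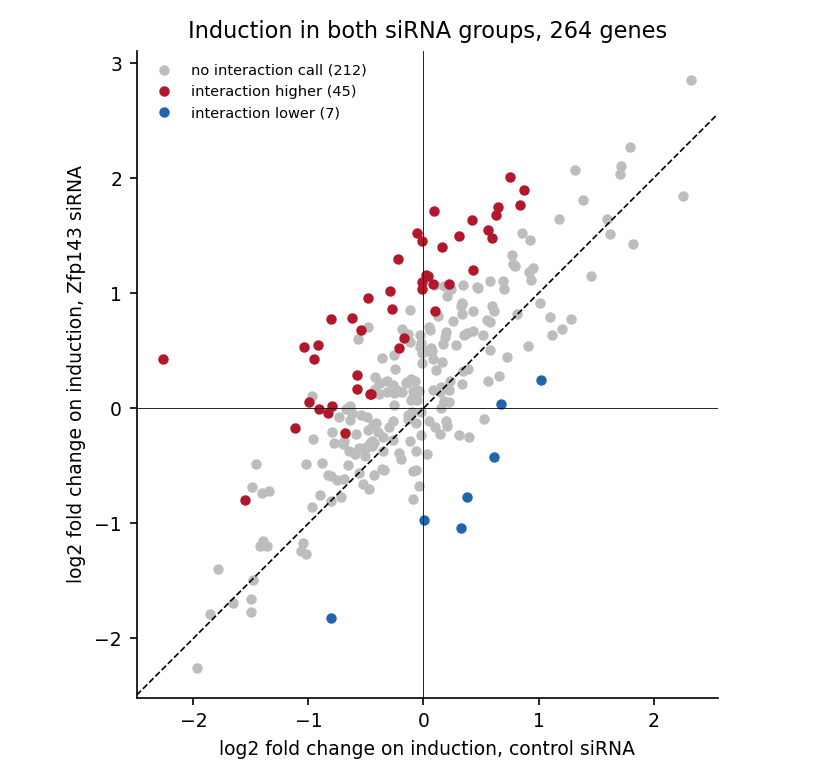
Log2 difference for induced minus uninduced libraries in knockdown cells (vertical axis) against the same in control cells (horizontal axis), 1 point per Zfp gene. Colours mark the 45 genes higher and the 7 genes lower in the interaction, described below, and the dashed line marks equal values. The points follow the line with a Pearson correlation of 0.76 over 264 genes, the 45 lie above it and the 7 below it.

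Zfp580 showed the largest increase in both. This gene, with an effective length of 569 bases, had 6.31, 4.70 and 3.70 CPM in induced libraries labelled knockdown against 0.742, 0.590 and 0.678 CPM in uninduced knockdown libraries (log2 difference 2.85 ± 0.45, edgeR adjusted p = 4.54e-05). In control cells it had 6.97, 3.37 and 3.41 CPM in induced against 1.14, 1.26 and 0.263 CPM in uninduced libraries (log2 difference 2.33 ± 0.43, edgeR adjusted p = 0.000195). Zfp503 rose in both, to 159, 108 and 106 CPM in induced libraries labelled knockdown and to 119, 92.8 and 92.3 CPM in induced controls, with log2 differences of 1.85 ± 0.17 and 2.25 ± 0.18. All its induced libraries were thus above all its uninduced ones, whose highest value was 36.8 CPM. Zfp568 rose by log2 differences of 1.43 in knockdown and 1.82 in control cells, and the KRAB genes Zfp14 and Zfp810 by 2.27 and 2.10 in knockdown and by 1.80 and 1.72 in control cells. Zfp579, with 8 fingers, rose by 2.07 in knockdown and 1.32 in control cells. Zfp637 had 32.4, 26.1 and 26.2 CPM in induced libraries labelled knockdown against 12.2, 9.98 and 13.7 CPM in uninduced knockdown libraries, and 29.98, 27.1 and 22.4 CPM in induced controls against 15.8, 12.7 and 17.3 CPM in uninduced controls. It rose by 1.24 ± 0.17 in knockdown and 0.80 ± 0.17 in control cells (edgeR adjusted p = 1.54e-05 and 0.000726). Zfp422 rose by 0.63 in knockdown and 0.52 in control cells, and without uninduced control 1 it differed by 0.34 in control cells and was not called. Of the 14 chromatin partners, 7 (50%) were higher with induction and 1 (7.14%) was lower in knockdown cells, against 36% and 30.1% of all tested genes. In control cells 5 (35.7%) were higher and 4 (28.6%) lower, near the 33.2% and 30.9% of all tested genes. Zfp318, Zfp687 and Zfp652 rose in both, by 1.81, 1.55 and 1.25 in knockdown cells and by 1.39, 0.56 and 0.78 in control cells. Zfp516 and Zfp292 were lower with induction in control cells, with log2 differences of -0.83 and -0.64.

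Among the decreases, Zfp7, a KRAB gene, had 9.76, 8.46 and 8.76 CPM in induced libraries labelled knockdown against 43.3, 45.9 and 40.01 CPM in uninduced knockdown libraries (log2 difference -2.26 ± 0.14, edgeR adjusted p = 2.65e-09). In control cells it had 7.55, 8.33 and 8.13 CPM in induced against 27.9, 29.8 and 36.7 CPM in uninduced libraries (log2 difference -1.97 ± 0.14, edgeR adjusted p = 1.02e-08). These were narrow groups far apart. Zfp428 had log2 differences of -1.78 in knockdown and -1.86 in control cells, Zfp131 of -1.77 and -1.50, Zfp367 of -1.70 and -1.66, and Zfp146 of -1.195 and -1.42, all called. The corepressor gene Zfp703, of the same family as Zfp503, fell, with log2 differences of -1.27 in knockdown and -1.02 in control cells, opposite to Zfp503. Of the 12 genes for RNA, ribosome, spindle and ubiquitin proteins, 5 (41.7%) were lower and 0 higher in knockdown cells, and 8 (66.7%) lower and 0 higher in control cells, against 30.1% and 30.9% of all tested genes lower. Zfp622 had 121, 117 and 113 CPM in induced libraries labelled knockdown against 275, 244 and 271 CPM in uninduced knockdown libraries, and 147, 155 and 133 CPM in induced controls against 286, 290 and 323 CPM in uninduced controls. Its log2 differences were -1.17 ± 0.11 in knockdown and -1.05 ± 0.11 in control cells (edgeR adjusted p = 3.54e-07 and 9.47e-07). Zfp593, also a factor of the large ribosomal subunit, fell, at -1.66 in knockdown and -1.50 in control cells, as did the nucleolar protein gene Zfp330, at -1.40 and -1.79, and Zfp706, at -0.65 and -0.53. Scaling by library size alone left 23 lower genes in knockdown cells in place of 39.

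The interaction asked whether the knockdown difference was itself different between induced and uninduced cells, which is the same as whether induction differed between knockdown and control cells. It was positive in 45 Zfp genes (17%) and negative in 7 (2.65%), against 10.6% and 11.8% of all tested genes (edgeR, adjusted p under 0.05), with a median of 0.36 against 0.02. Of the 91 genes lower in uninduced knockdown cells 42 were among the 45, and of the 9 higher genes 6 were among the 7; these comparisons share libraries, so the counts are a description. Zfp961 had the largest interaction, 2.69 ± 0.34 (edgeR adjusted p = 7.14e-05): its log2 difference with induction was 0.43 in knockdown and -2.26 in control cells. Zfp661, Zfp213, Zfp111 and Zfp94 had interactions of 1.58, 1.58, 1.56 and 1.52. For Zfp213, a KRAB gene, the induced libraries were at 18.0, 12.4 and 11.1 CPM where labelled knockdown and 12.4, 11.9 and 9.76 CPM in controls, and the uninduced ones at 4.91, 4.37 and 5.09 CPM in knockdown and 9.67, 10.4 and 15.4 CPM in controls. The uninduced knockdown group alone was low in Zfp213. In the other direction, Zfp52, Zfp948 and Zfp954 had interactions of -1.36, -1.15 and -1.04. Without uninduced knockdown 1 the interaction was positive in 26 genes, with 7.19% of all genes then positive, and without uninduced control 3 it was positive in 53 and negative in 11, with 14.8% and 16.8% of all genes. Across genes, log2 length and the interaction had a Pearson correlation of 0.19 over the 264 Zfp genes and 0.17 over the other protein-coding genes. With the length trend removed, the interaction was positive in 37 (14%) and negative in 12 (4.55%), against 9.46% and 13.3% of all genes. Of the 45 positive genes 35 were still called.

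Position in the genome was read from the gene order of an annotation of the GRCm38 assembly. Runs of at least 5 of the genes with at most 5 other protein-coding genes between neighbours gave 12 clusters with 92 of the genes. In uninduced knockdown cells 31 of the 92 (33.7%) were lower and 4 (4.35%) higher. Of the 172 outside clusters, 60 (34.9%) were lower and 5 (2.91%) higher, so the shares were close. Of all tested genes, 17.1% were lower and 15.4% higher. The largest run, 21 genes on chromosome 17, had 9 lower genes, among them Zfp760, Zfp994 and Zfp213, and 2 higher ones, Zfp52 and Zfp948, so neighbours differed in direction. A run of 6 on chromosome 8 had 4 lower and 0 higher. A run of 6 on chromosome 7 held Zfp747 and Zfp764, both higher, and none lower. Another run of 5 on chromosome 7 held Zfp579, Zfp865, Zfp580, Zfp524 and Zfp628. With induction all 5 were higher in knockdown cells and 4 in control cells, with median log2 differences of 1.48 and 1.32. Of all tested genes, 36% and 33.2% were higher, with medians of 0.10 and 0.03. Single runs hold few genes, and differences between runs and all genes were not tested. Genes of a run can share reads through similar sequences, and 48 of the 264 genes (18.2%), against 21% of protein-coding genes at the threshold, had estimated counts that were not whole in more than 6 libraries. Among the genes named above these were Zfp148, Zfp207, Zfp213, Zfp367, Zfp523, Zfp57, Zfp593, Zfp638, Zfp738, Zfp747, Zfp865, Zfp932, Zfp965 and Zfp994, whose levels are uncertain. Without these 48, 78 of 216 genes were lower and 8 higher in uninduced knockdown cells.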

How the data were processed

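RNA from 12 libraries of C2C12 cells, 3 in each of 4 groups, was sequenced as poly-A RNA with a kit that does not mark strand, per the labels' protocols. Reads were processed with fastp 1.0.1, STAR 2.7.11b and Salmon on GRCm39, per the submitters' processing notes. The release of the annotation was not stated. The authors' deposited table holds estimated counts per gene, a scaled TPM column per library and the average effective transcript length. With 535 repeated lines the deposited TPM column sums to more than 1000000 and was recorded as a score; over unique genes it sums to 1000000, differs by at most 0.0414% from TPM recomputed from counts and lengths for values of 2 or more, and was used as TPM. The deposited FPKM values were not used.

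Estimated counts were rounded and tested with edgeR 4.0.16 in R 4.3.3: TMM factors, genes kept by a minimum count of 10 (filterByExpr, 15030 genes), a robust quasi-likelihood fit with 1 mean per group over all 12 libraries (8 residual degrees of freedom) and Benjamini-Hochberg adjustment over all tested genes. Calls need an adjusted p under 0.05. The 5 comparisons were knockdown against control in uninduced and in induced cells, induced against uninduced in knockdown and in control cells, and their interaction. Antisense genes that overlap a Zfp gene cannot be told apart without strand. The pipeline was tested on simulated counts with known changes.

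The genes, the role lists, the corepressor list and the marker lists were chosen with earlier results of these data known. The genes named are, in each comparison, the 6 of largest change in each direction that were called, reached 2 CPM in the higher group and had ranges that did not overlap (no range rule for the interaction), the 8 highest and those at the threshold, and the role lists. Others are named as members of a cluster, of a motif class or of a small count, chosen after their values were seen. Fingers and KRAB domains were predicted from translated coding sequences of GENCODE vM21, the KRAB domain with a profile built after the data were seen from sequences that match a strict pattern (HMMER 3.4, E-value under 0.001), for 263 of the 264 genes. Gene order and promoters came from GRCm38, used for no coordinate of the counts, and promoter sequences are from RefSeq. Alternatives were other scalings, DESeq2 1.42.0, limma-voom (limma 3.58.1), no filter, a length offset, other level thresholds, a replicate block and each library left out. The removal of the length trend (lowess span 0.3), the set without genes of mostly not whole counts and the strict KRAB pattern were added after seeing the data.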

Additional observations from a re-analysis of the deposited data

Results flagged for a closer look

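In 45 Zfp genes the log2 difference for knockdown minus control was larger in induced than in uninduced cells by the interaction test, and in 7 it was smaller (edgeR's quasi-likelihood test, adjusted p under 0.05). The named genes with a positive interaction, given as the log2 value, were Zfp961 (2.69), Zfp759 (1.63), Zfp661 (1.58), Zfp213 (1.58), Zfp111 (1.56), Zfp94 (1.52), Zfp462 (1.47), Zfp369 (1.44), Zfp760 (1.38), Zfp963 (1.26), Zfp746 (1.11), Zfp101 (1.05), Zfp687 (0.99), Zfp148 (0.903), Zfp516 (0.787), Zfp566 (0.755) and Zfp609 (0.744). Those with a negative interaction were Zfp52 (-1.36), Zfp948 (-1.15), Zfp954 (-1.04), Zfp655 (-1.02), Zfp747 (-0.972), Zfp764 (-0.777) and Zfp281 (-0.638).

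All of these genes but Zfp101 and Zfp281 were called between the siRNAs in uninduced cells, and none but Zfp101 was called in induced cells. Zfp101 was called in induced cells, where it was higher in libraries labelled knockdown, and Zfp281, a pluripotency regulator, was called in neither state. Leaving out 1 library took the interaction call from Zfp566 in 11 of 12 fits, Zfp764 in 10, Zfp609 in 9, Zfp281 in 7, Zfp759 and Zfp963 in 2 each and Zfp516 in 1. All of Zfp759, Zfp963 and Zfp516 lost it without uninduced knockdown 1, Zfp759 also without induced control 1 and Zfp963 also without induced knockdown 3.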

How the results depend on the processing

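Of 160 calls on named genes over the 5 comparisons, 120 were made under every alternative and 40 were lost under at least 1. Removing the length trend, chosen after seeing the data, turned Zfp106 to 0.112 and Zfp318 to 0.135 for the knockdown in uninduced cells, and Zfp592 to -0.265 and Zfp608 to -0.00289 for induction in knockdown cells. Removing the trend gave 17 genes (6.44%, against 15.9% of all tested genes) higher for the knockdown in uninduced cells. It gave 4 (1.52%, against 7.01% of all) lower for the knockdown in induced cells. For induction in knockdown cells it gave 78 higher and 69 lower (29.5% and 26.1%, against 32.8% and 33.7% of all). The interaction was positive in 37 and negative in 12 (14% and 4.55%, against 9.46% and 13.3% of all). Without both libraries that stand apart, uninduced control 3 and induced knockdown 1, 24 genes were higher and 101 lower with the knockdown in uninduced cells (23.2% and 23.8% of all tested genes) and 5 higher and 9 lower in induced cells (6.33% and 10.5%). Induction then gave 125 higher and 48 lower in knockdown cells (38.3% and 33% of all) and 79 and 74 in control cells (35.6% and 32.7%), and the interaction was positive in 72 and negative in 13 (18.3% and 20% of all). At a threshold of 5 TPM, which leaves 177 genes, 55 were lower with the knockdown in uninduced and 1 in induced cells, 46 were higher with induction in knockdown and 30 in control cells, and 23 interactions were positive. The fit was unchanged there, so the shares of all tested genes are those of the main fit. With library size only, the knockdown in induced cells gave 2 higher and 1 lower, and induction in knockdown cells 23 lower with a median of 0.461. DESeq2 gave 2 higher and 4 lower for the knockdown in induced cells. As a sum of CPM, the log2 ratios that turned round were -0.0556 for the knockdown in induced cells, and -0.0276 and -0.261 for induction in knockdown and control cells. Apart from construction (fewer genes at 5 TPM, fewer libraries), the cause was not tested.

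With each library left out in turn, the knockdown in uninduced cells gave 6 to 18 higher and 56 to 100 lower genes with a median of -0.445 to -0.284, and in induced cells 1 higher and 1 to 4 lower with a median of -0.0932 to -0.00245. Induction gave 88 to 109 higher and 28 to 50 lower in knockdown cells (median 0.158 to 0.273) and 43 to 69 higher and 56 to 78 lower in control cells (median -0.144 to 0.0156, above 0 and with more higher than lower genes without uninduced control 3). The interaction was positive in 26 to 53 and negative in 5 to 11 (median 0.238 to 0.399). The share of all tested genes called moved between these fits too. For the knockdown in uninduced cells it was 10.8% lower without uninduced knockdown 1 and 18.7% lower without uninduced control 3.

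Libraries of different groups share replicate numbers, and the labels do not say whether the numbers pair them. Deviations of same-numbered libraries from their group means correlated at -0.0963 to 0.306, against -0.279 to 0.249 for other pairs. These ranges overlap, so they cannot decide whether the numbers pair the samples. With the replicate number as a block, 12 were higher and 98 lower for the knockdown in uninduced cells, 1 and 2 in induced cells, 105 and 45 for induction in knockdown cells, 57 and 76 in control cells, and 48 and 7 for the interaction. The shares of all tested genes with this block are not given, so these counts cannot be set against other genes. With 3 libraries a group, low genes such as Zfp580 and Zfp14, near 1 CPM in uninduced cells, are the least precise.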
